A study of Danio rerio and Garra andruzzii with 24 samples.

Results

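The genes described here encode the zebrafish PAR-bZip factors (*tefa*, *tefb*, *dbpa*, *dbpb* and *hlfa*) and the Nfil3 factors (*nfil3*, *nfil3-2*, *nfil3-5* and *nfil3-6*), the families that bind the D-box enhancer. They were chosen by gene name in the genome count table and, in the assembled tables, by a best UniProt match to TEF, DBP, HLF or NFIL3. Of the 9 names, 8 have a row among the 35886 genes of the genome table, and 7 of these had enough reads for a test. No row is named *nfil3-2*. In the assembled tables, 6 of 24467 Trinity genes of PAC-2 cells and 6 of 25656 of EPA cells carry such a match. A Trinity gene is a group of transcripts put together from the reads without a genome.

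PAC-2 is a fibroblast-like line made from zebrafish embryos, and EPA is the corresponding embryonic line of the blind Somalian cavefish *Phreatichthys andruzzii*. The labels name no transgene, targeted mutation or added agent for either line. After 2 days in darkness, cells were exposed to blue light (468 nm) for 1 h, 3 h or 6 h, or were sampled without light (0 h), with 3 libraries for each line and time and 24 in all. Since dark libraries exist for 0 h alone, the effect of light cannot be told apart from that of time in culture, and p-values measure the spread between libraries whose origin in separate cultures the sources do not state.

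PAR-bZip proteins are leucine-zipper transcription factors with a domain rich in proline and acidic residues, and they activate promoters through the D-box. Nfil3, known in mammals as E4BP4, binds the same element and mostly represses. In mammals, the output of the circadian clock passes in part through this pair of opposed activators and repressors. In fish cells, the D-box also serves in the response of clock and DNA-repair genes to light, and fish carry several gene copies of each factor.

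The D-box matches that the study's promoter scan lists for its own reporter genes illustrate the letters that the matrices of these factors match. Lower case marks bases covered by only some of the matrices, and capitals mark the stretch covered by every family matrix that matched the site. Overlapping matches were merged into a site and the longest is printed, with the case set here, for *hebp2* (chromosome 20), *soul5* (chromosome 3) and *abcb6a* (chromosome 1).
hebp2: gAGTGATGTAACAt
soul5: aTCTTACACAACAc
abcb6a: TTATTGTATAAGTc
The *hebp2* site was matched by all 4 matrices (TEF, HLF, DBP and NFIL3), the *soul5* site by 3 (TEF, HLF and DBP) and the *abcb6a* site by 2 (HLF and NFIL3). The capitals span 12 bases in *hebp2* and *soul5* and 13 in *abcb6a*. A separate NFIL3 match in *soul5* is not shown, nor are further D-box sequences that the study's text describes in these promoters. A matrix match is a description of letters and does not show binding.

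Library totals ranged from 20037859 to 32521127 counts in the genome table. Of 13 fibroblast markers found there, 9 exceeded 1 TPM in the dark, and the summed level of the 13 was 1280 to 1310 TPM after 6 h of light and 1201 to 1381 TPM at 0 h. Those below 1 TPM at 0 h were *dcn* (0.66 TPM), *vim* (0.63 TPM), *fn1b* (0.54 TPM) and *thy1* (0.019 TPM). The 6 epidermal markers summed to 1037 to 1057 TPM after 6 h and 1042 to 1197 TPM at 0 h, with *krt8* as the main one (948 TPM after 6 h and 1000.3 TPM at 0 h) and *epcam* at 0. The 5 muscle markers, mostly *acta1a*, summed to 36.2 to 43.5 TPM after 6 h and 66.9 to 67.4 TPM at 0 h, with *mylpfa* at 0. The 4 endothelial markers summed to 33.6 to 39.7 TPM after 6 h and 17.3 to 25.3 TPM at 0 h, nearly all of it *kdr* (36.6 TPM after 6 h and 21.2 TPM at 0 h), with *cdh5* and *fli1a* at 0 at 0 h. The 4 pigment markers, nearly all *dct*, summed to 212 to 215 TPM after 6 h and 174 to 197 TPM at 0 h, with *mitfa* and *tyr* at 0. Of 12 fibroblast markers sought by UniProt name, 7 were found in the EPA table and 5 in the PAC-2 assembled table, all above 1 CPM at 0 h. The part of cell composition in the results below was not tested, and in bulk RNA fewer cells of a type and less RNA per cell cannot be told apart.

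In PAC-2 cells, the members moved in opposite directions during light. *nfil3-6* and *tefa* rose, *tefb* and *dbpb* fell, and *nfil3-5* and *hlfa* passed the test after 6 h only. With the study's thresholds (a log2 change of 1 or more in either direction, adjusted p under 0.001), 1 of the 7 tested members was called at 1 h (*nfil3-6*), 2 at 3 h (*nfil3-6* and *tefa*) and 2 at 6 h (*nfil3-6* and *dbpb*). Over all tested genes, 0.0222% were called at 1 h, 0.733% at 3 h and 1.54% at 6 h. At an adjusted p under 0.05 with no fold minimum, 1, 4 and 6 members passed after 1, 3 and 6 h, where 0.172%, 21.4% and 29% of all genes did.

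**Figure D1:**
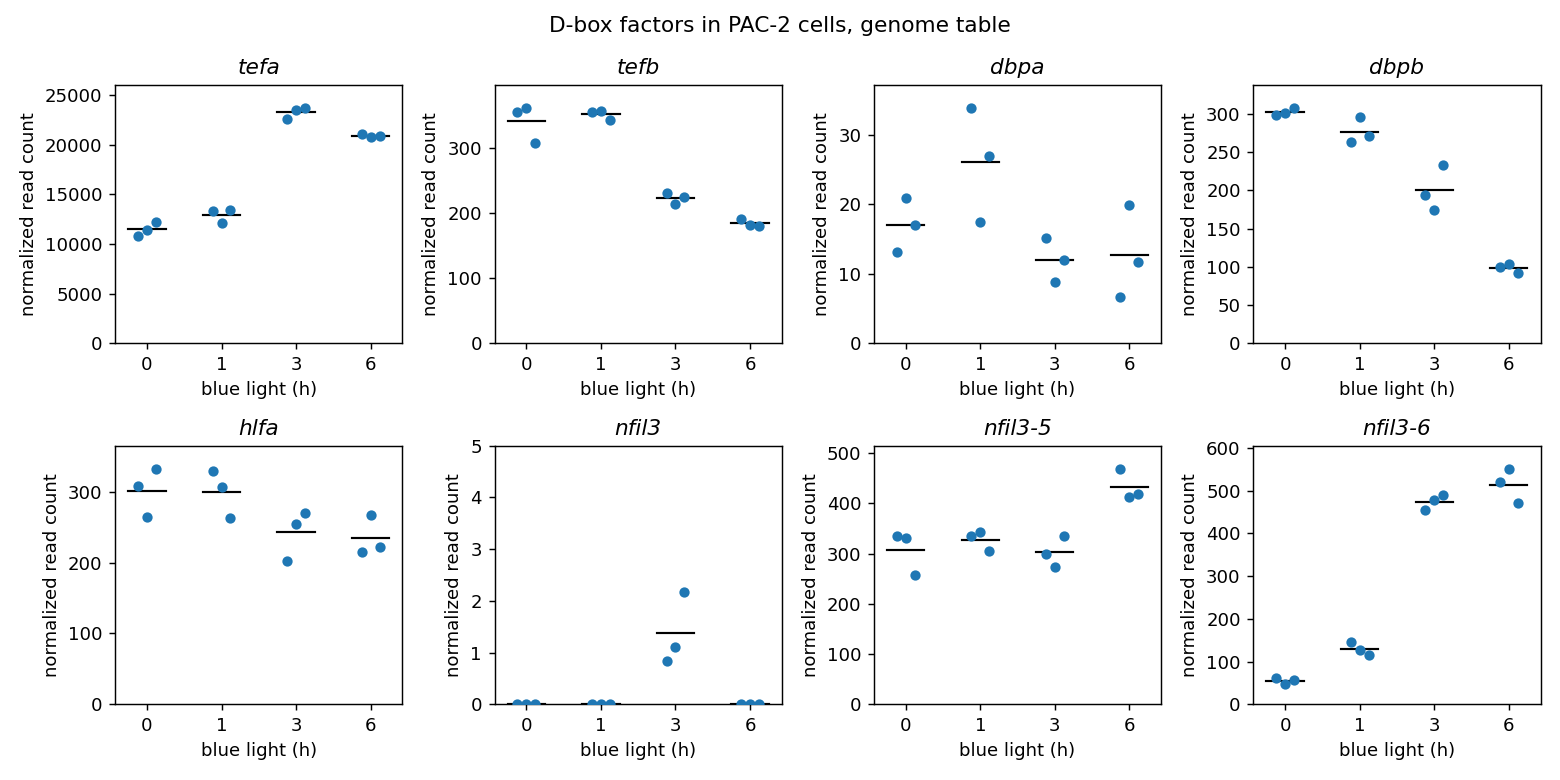
Normalized read counts (y axis) of the 8 members with a row in the genome table against hours of blue light (x axis) in PAC-2 cells; points are libraries and bars are means of 3. *nfil3-6* and *tefa* are higher at 3 h and 6 h than at 0 h, *tefb* and *dbpb* are lower, and *nfil3* is at 0 outside 3 h.

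*nfil3-6* (chromosome 3, 14099693 to 14103551 of GRCz11, minus strand, protein coding; all coordinates are of this build) had the largest change among the tested members. Its normalized counts, which are TMM-scaled to the mean library size, were 61.2, 46.8 and 56.4 at 0 h, 146, 127 and 115 at 1 h, 454, 477 and 490 at 3 h, and 519, 550 and 470 at 6 h. Every light library lay above every 0 h library. Over all tested genes, the libraries lay apart from those of 0 h, in either direction, for 10.1% at 1 h, 35.9% at 3 h and 43.3% at 6 h. The log2 fold change against 0 h was 1.22 (SE 0.13, adjusted p = 0.00012) at 1 h, 3.10 (SE 0.12, adjusted p = 1.94e-11) at 3 h and 3.22 (SE 0.12, adjusted p = 5.98e-12) at 6 h. From 1 h to 3 h it rose by 1.88 on the log2 scale (adjusted p = 3.37e-09), and the 6 h and 3 h libraries differed by 0.12 (adjusted p = 0.363). In TPM, which uses no TMM factor, it had 16.2 TPM (14.7 to 17.5) at 6 h and 12.3 TPM (11.9 to 12.9) at 3 h, with no overlap. The size of the later rise thus depended on the scaling. The call at 1 h ended without replicate 2 of 0 h or of 1 h.

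*nfil3-5* (chromosome 6, 8172227 to 8180042, plus strand) changed later and less. It had 335, 331 and 257 normalized counts at 0 h, 334, 344 and 305 at 1 h, 299, 274 and 335 at 3 h, and 468, 413 and 418 at 6 h. The 6 h libraries lay above all others, while those of 1 h and 3 h overlapped the 0 h libraries. At 6 h, its log2 fold change was 0.49 (SE 0.11, adjusted p = 0.00238) against 0 h and 0.52 (adjusted p = 0.00112) against 3 h. Tested against a fold of 1.2, the 6 h change did not pass (adjusted p = 0.0658).

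*nfil3* itself (chromosome 10, 5414224 to 5419256, plus strand) was almost without reads. It had 0 counts in every library of 0 h, 1 h and 6 h and 4 counts in all over the 3 h libraries, so it entered no test. An unannotated locus on the alternate contig CHR_ALT_CTG10_1_2 (5396991 to 5402060, plus strand), carries the domain of the vertebrate interleukin-3 regulated factors. It was picked after its values were seen. It had 74.6, 84.4 and 103 normalized counts at 3 h, against 48, 25.8 and 30.2 at 0 h, with a log2 fold change of 1.30 (SE 0.22, adjusted p = 0.000638). At 1 h it did not pass (0.80, adjusted p = 0.394). At 6 h it rose by 1.09 (adjusted p = 0.00134), which missed the study's p threshold. Whether it is a copy of *nfil3* was not tested, and reads of near-identical copies can be split between them.

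*nfil3-2* has no row, but a further unannotated locus lies on chromosome 3 (14081322 to 14092557, minus strand), 7135 bases from *nfil3-6*. It holds a basic region leucine zipper, and it too was picked after its values were seen. In the current RefSeq annotation (assembly GRCz12tu), *nfil3-2* neighbours *nfil3-6*, but the identity of the locus was not tested. It had 1328, 1281 and 1179 normalized counts at 6 h, against 628, 571 and 589 at 0 h, with no overlap. Its log2 fold change was 0.50 (adjusted p = 0.00122) at 1 h, 0.60 (adjusted p = 5.52e-06) at 3 h and 1.08 (SE 0.06, adjusted p = 2e-09) at 6 h.

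**Figure D2:**
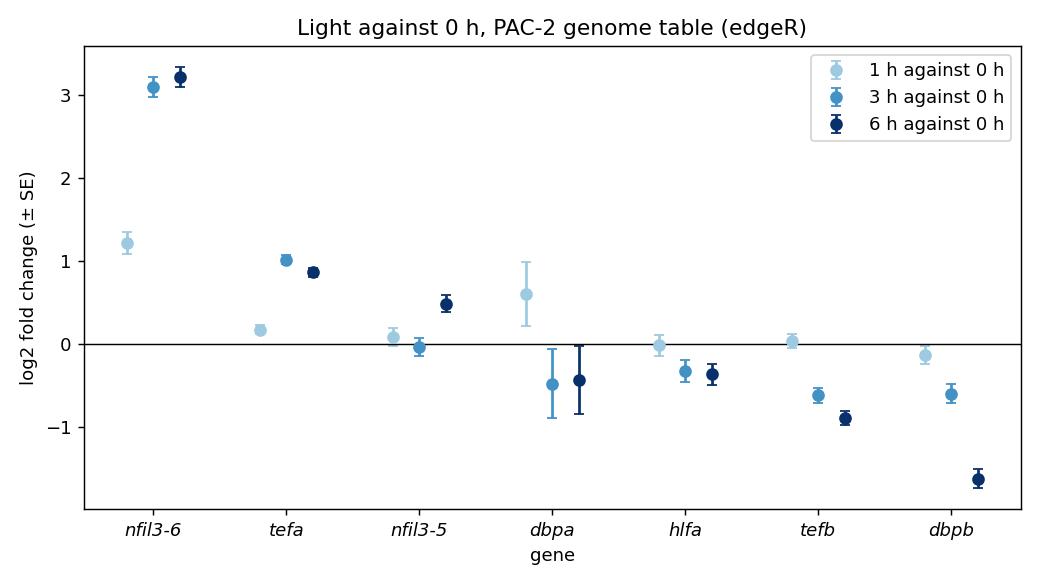
Log2 fold change against 0 h (y axis, ± SE from edgeR) of the 7 tested members (x axis) in PAC-2 cells after 1 h, 3 h and 6 h of light. *nfil3-6* reaches 3.22 and *dbpb* -1.61 at 6 h, and the points of *dbpa* have the widest errors.

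Among the activators, *tefa*, the thyrotroph embryonic factor gene (chromosome 12, 19144833 to 19153177, minus strand), was the most abundant of the tested members. It had 10827, 11364 and 12183 normalized counts at 0 h, 13328, 12114 and 13428 at 1 h, 22571, 23473 and 23625 at 3 h, and 21022, 20775 and 20857 at 6 h. The libraries of 3 h and 6 h lay above all those of 0 h and 1 h, and those of 1 h overlapped 0 h. The log2 fold change was 0.18 (SE 0.05, adjusted p = 0.48) at 1 h, 1.02 (SE 0.05, adjusted p = 8.26e-10) at 3 h and 0.87 (SE 0.05, adjusted p = 3.09e-09) at 6 h. Its 3 h value lies near the fold threshold, and without replicate 1 of 0 h only 1 member was called at 3 h. In TPM, which uses no TMM factor, the log2 ratio of the means was 0.84 at 3 h and 0.96 at 6 h. Between 6 h and 3 h the direction in the genome table depended on the scaling. With TMM factors the log2 fold change was -0.15 (adjusted p = 0.0275), whereas *tefa* had 557 TPM (551 to 564) at 6 h, against 511 TPM (499 to 528) at 3 h, with no overlap. TPM moved the log2 ratio of 6 h to 3 h by a median of 0.28 over all tested genes. The assembled counts of PAC-2 cells, also TMM-scaled, showed no such fall. There the TEF match DN5106_c0_g1, whose pattern followed *tefa* (r = 0.990, a description), changed by 0.0053 from 3 h to 6 h (edgeR, adjusted p = 0.921). Its pattern was also like that of *nfil3-6* (r = 0.979), so such r values do not establish the locus of a match.

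An unannotated leucine-zipper locus with coordinates near those of *tefa* stands on the alternate contig CHR_ALT_CTG12_2_1 (19159129 to 19166304, minus strand) and was also picked after its values were seen. It had 409, 338 and 367 normalized counts at 6 h, against 166, 188 and 142 at 0 h (log2 fold change 1.17, SE 0.15, adjusted p = 2.63e-05). With its counts added to those of *tefa*, the sum was 22922, 23739 and 23951 at 3 h, against 10993, 11552 and 12325 at 0 h. The sum thus followed *tefa*, which supplied most of the counts.

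*tefb*, the second copy (chromosome 3, 5052822 to 5067585, minus strand), moved the other way. It had 355, 361 and 307 normalized counts at 0 h, 355, 357 and 342 at 1 h, 231, 214 and 224 at 3 h, and 191, 182 and 181 at 6 h. The 3 h and 6 h libraries lay below all 0 h libraries. The log2 fold change was 0.04 (adjusted p = 0.995) at 1 h, -0.61 (SE 0.09, adjusted p = 0.000125) at 3 h and -0.88 (SE 0.09, adjusted p = 1.32e-06) at 6 h. The gene passed the test at both later times without reaching the fold threshold.

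*dbpb*, a D-box binding protein gene (chromosome 16, 13599693 to 13613475, minus strand), fell at 3 h and 6 h. It had 299, 301 and 307 normalized counts at 0 h, 263, 295 and 271 at 1 h, 195, 174 and 233 at 3 h, and 100, 104 and 91.5 at 6 h. The libraries of every light time lay below those of 0 h, although the 1 h change did not pass the test (log2 fold change -0.13, adjusted p = 0.943). The log2 fold change was -0.59 (SE 0.11, adjusted p = 0.00126) at 3 h and -1.61 (SE 0.12, adjusted p = 2.35e-08) at 6 h, and between 3 h and 6 h it fell by 1.02 (adjusted p = 1.81e-05).

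*dbpa* (chromosome 19, 10177115 to 10196370, minus strand) was the lowest of the tested members and passed no test. It had 13.2, 20.9 and 17.1 normalized counts at 0 h, 33.8, 17.5 and 27 at 1 h, 15.1, 8.88 and 12 at 3 h, and 6.69, 19.9 and 11.7 at 6 h. The libraries of every light time overlapped those of 0 h. Its log2 fold change was 0.60 (SE 0.38, adjusted p = 0.91) at 1 h, -0.47 (SE 0.41, adjusted p = 0.462) at 3 h and -0.43 (SE 0.41, adjusted p = 0.48) at 6 h.

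*hlfa*, the hepatic leukemia factor gene (chromosome 3, 11585298 to 11624694, minus strand), had 308, 265 and 332 normalized counts at 0 h, 330, 307 and 263 at 1 h, 203, 255 and 270 at 3 h, and 215, 267 and 222 at 6 h. The libraries overlapped at all times. Its log2 fold change of -0.36 at 6 h (SE 0.13, adjusted p = 0.0463) passed narrowly and no longer passed when one of several libraries was left out (highest adjusted p = 0.168). Of the other family genes, *hlfb* and *nfil3-3* had at most 8 and 9 counts in a library and *nfil3-4* had none.

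Between later and earlier light, 4 members passed at an adjusted p under 0.05 from 1 h to 3 h (*nfil3-6*, *tefa*, *tefb* and *dbpb*), where 18.7% of all genes passed, and 4 passed from 3 h to 6 h (*tefa*, *tefb*, *dbpb* and *nfil3-5*), where 40.5% passed. From 3 h to 6 h, *tefb* (log2 fold change -0.27) did not pass with DESeq2 (adjusted p = 0.0581) or without the filter on low counts (edgeR, adjusted p = 0.0626). Its level was 7.18 TPM (6.96 to 7.45) at 6 h and 7.15 TPM (6.73 to 7.42) at 3 h, with overlapping libraries. Over these hours the direction of *tefa* thus turned in TPM, while *tefb* showed almost no change.

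Levels between genes were compared per length, as FPKM (fragments scaled by gene length and sequencing depth) that the authors deposited. The sources used here do not state how depth was scaled, but FPKM of *tefa* stayed nearly proportional to its TMM-scaled counts. Its replicate 1 had 144, 299 and 277 FPKM at 0, 3 and 6 h, against 10827, 22571 and 21022 normalized counts. *tefa* had 307 FPKM at 3 h and 276 FPKM at 6 h, which is thus no separate evidence for the direction of its TMM-scaled counts. At 0 h, *tefa* had 152 ± 9.59 FPKM (SD, n = 3), far above *tefb* with 6.6 ± 0.547 FPKM. They were followed by *hlfa* (3.99 FPKM), *nfil3-5* (2.77 FPKM), *dbpb* (2.28 FPKM), *nfil3-6* (0.862 FPKM) and *dbpa* (0.222 FPKM). At 0 h no neighbouring members overlapped in FPKM, but in TPM *nfil3-5* and *dbpb* did. At 6 h, *tefa* had 276 ± 1.12 FPKM and *nfil3-6* 8.04 ± 0.632 FPKM, the second highest of the tested members. Below them stood *nfil3-5* (3.88 FPKM), *tefb* (3.56 FPKM), *hlfa* (3.09 FPKM), *dbpb* (0.738 FPKM) and *dbpa* (0.166 FPKM), of which *tefb* and *hlfa* overlapped. *nfil3-6* thus passed from below *dbpb* in the dark to above *tefb* in the light, and *dbpb* fell below every other tested member but *dbpa*. This order leaves out *nfil3*, whose row was almost without reads, and *nfil3-2*, which has no row. The levels of *nfil3* and *nfil3-2* thus cannot be read from the genome table, and the origin of the assembled NFIL3 reads was not tested.

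**Figure D3:**
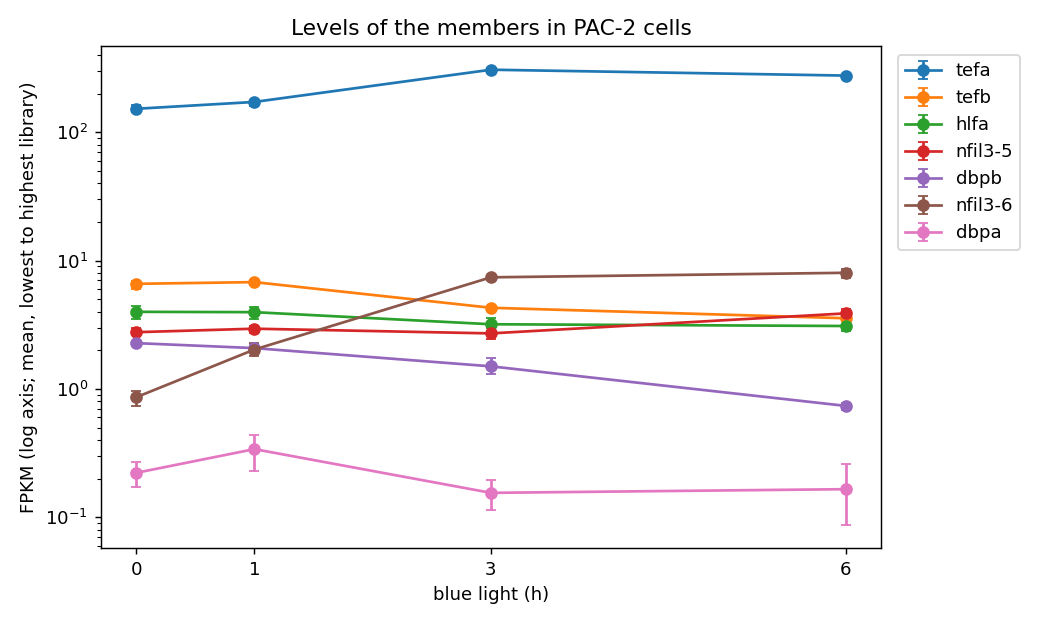
FPKM (y axis, log scale) of the 7 tested members against hours of blue light (x axis) in PAC-2 cells; points are means of 3 libraries and bars run from the lowest to the highest library. *tefa* is highest at each time, and the line of *nfil3-6* crosses those of *dbpb*, *nfil3-5*, *hlfa* and *tefb*.

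Genes whose pattern over the 12 PAC-2 libraries was most like that of a member were found by Pearson correlation of log2 CPM, as a description without a test, since the libraries share the time course. For *nfil3-6* these were *rsrp1* (r = 0.991), *cry1aa* (0.990), *pfkfb3* (0.988), *sdhaf1* (0.987) and *cant1b* (0.987), where *cry1aa* encodes a cryptochrome and *pfkfb3* an enzyme that controls glycolysis. For *tefa* they were *angel2* (r = 0.995), *gadd45aa* (0.992), *CU571331.1* (0.991), an unannotated locus (0.990) and *tsku* (0.989). For *dbpb* they were *cep55l* (r = 0.984), the period gene *per1a* (0.981), *si:ch211-156j22.4* (0.980), *cdc14b* (0.979) and *ddx3b* (0.978). Many genes were about as alike, since 122, 176 and 77 of 18017 had r above 0.95 with *nfil3-6*, *tefa* and *dbpb*.

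The circadian clock genes, many of which feed into or respond to D-box factors, moved in both directions. Of 27 tested of 36 listed, 5 were called higher and 3 lower at 6 h, where 1.54% of all genes were called in either direction. The median log2 fold change of the 27 was 0.14, beside 0.00245 over all genes. At an adjusted p under 0.05, 10 of the 27 were higher and 7 lower at 6 h, where 29% of all genes passed in either direction. The cryptochrome *cry1bb* (3.01) and the period gene *per2* (3.67) were among the higher, and *per1a* (-2.58), *per1b* (-1.64) and *ciarta* (-1.57) were the lower ones at 6 h. Of a list of genes taken as D-box controlled, most of them named so by the study, all 8 were called higher at 6 h, with a median of 3.55. The list was chosen with results of these libraries known, so this is not independent evidence. Of the C/EBP genes, a related zipper family, *cebpg* passed at 6 h (0.53, adjusted p = 8.4e-07), where 29% of all genes did. The 2 others tested, *cebpb* and *cebpd*, did not pass (median over the 3 tested -0.12). The MAP kinase genes include the stress kinases upstream of light signalling in fish. Of 8 tested, 5 were lower at 3 h with an adjusted p under 0.05, where 1827 of all 18017 tested genes were. The median over the 8 at 3 h was -0.43. At 6 h only *mapk14b* (0.40, higher) and *mapk14a* (-0.32, lower) of the 8 passed, near the 29% of all genes that did. The median over the 8 was then 0.08.

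The assembled tables allow both lines to be compared, with deposited expected counts from salmon that were rounded. Each holds 4 Trinity genes matched to NFIL3, 1 to TEF and 1 to HLF, and none to DBP. In PAC-2 cells, 0, 2 and 2 of these 6 were called at the study's thresholds after 1, 3 and 6 h, where 0.0171%, 0.585% and 1.15% of Trinity genes were. At an adjusted p under 0.05, 2, 5 and 6 passed, against 0.107%, 15% and 22.4% of all. In EPA cells, none was called at any time, where 0.0303%, 0.0908% and 0.298% of all Trinity genes were. At an adjusted p under 0.05, 0, 0 and 2 passed, where 0.316%, 1.28% and 6.26% of all did.

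In PAC-2 cells, the Trinity gene DN51909_c0_g1, whose best match is a frog NFIL3 (NFIL3_XENLA), had 39.4, 23.4 and 38.1 normalized counts at 0 h, 83.2, 76.1 and 69.2 at 1 h, 255, 268 and 259 at 3 h, and 321, 331 and 296 at 6 h. Every light library lay above the 0 h libraries, with a log2 fold change of 2.95 (SE 0.18, adjusted p = 6.38e-06) at 3 h and 3.22 (SE 0.18, adjusted p = 1.99e-06) at 6 h. Over all tested Trinity genes of PAC-2 cells, libraries lay apart from 0 h, in either direction, for 10.1% at 1 h, 34.2% at 3 h and 40.5% at 6 h. Its pattern over the libraries followed that of *nfil3-6* (r = 0.997, a description) and was also like that of *tefa* (r = 0.951). At 1 h this Trinity gene reached an adjusted p of 0.0497 (edgeR, log2 fold change 1.17). This was lost with 1 h and 0 h fitted alone, with DESeq2 size factors (0.055) and without the filter (0.0519). It was also lost with the replicate block (0.15) and with glmTreat against a fold of 1.2 (0.137). With 6 h and 0 h fitted alone, 0 of the 6 matches were called at 6 h.

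DN45667_c1_g2, matched to the zebrafish protein NFIL3_DANRE, had 659, 656 and 633 normalized counts at 0 h, 947, 942 and 1014 at 1 h, 1563, 1670 and 1639 at 3 h, and 1200, 1176 and 1176 at 6 h. All light libraries lay above those of 0 h, and the highest were those of 3 h. The log2 fold change was 0.57 (adjusted p = 0.00111) at 1 h, 1.32 (SE 0.05, adjusted p = 1.84e-07) at 3 h and 0.87 (adjusted p = 1.7e-06) at 6 h. The row named *nfil3* in the genome table had almost no counts, and which locus gave these reads was not tested. The pattern of DN45667_c1_g2 was about as like those of *tefa* (r = 0.922), *nfil3-6* (0.915) and the locus on CHR_ALT_CTG10_1_2 (0.891).

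Both NFIL3_XENTR matches also rose at 6 h, by 1.08 (DN464_c4_g1, adjusted p = 8.04e-06) and 0.38 (DN5100_c0_g1, adjusted p = 0.000531). The pattern of the first followed that of the unannotated chromosome 3 locus beside *nfil3-6* (r = 0.999). The TEF match (DN5106_c0_g1, TEF_CHICK) had 9338, 9239 and 9255 normalized counts at 6 h, against 4697, 4748 and 4967 at 0 h, with a log2 fold change of 0.95 (SE 0.03, adjusted p = 1.08e-07). The HLF match (DN8992_c1_g2) had 136, 156 and 138 at 6 h, against 194, 174 and 193 at 0 h (log2 fold change -0.38, adjusted p = 0.0457). It did not pass with the replicate block (adjusted p = 0.0819), with only 6 h and 0 h fitted (0.071) or with glmTreat against a fold of 1.2 (0.364).

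In EPA cells, the changes were smaller. Each table was normalized on its own, so levels are not compared between the lines. DN11417_c0_g1 (NFIL3_XENLA) had 235, 249 and 234 normalized counts at 6 h, against 209, 185 and 181 at 0 h (log2 fold change 0.32, adjusted p = 0.0479). DN29825_c1_g1 (NFIL3_DANRE) had 540, 540 and 515 at 6 h, against 432, 397 and 421 at 0 h (0.35, adjusted p = 0.0164). For both, the 6 h libraries lay above those of 0 h, and over all tested Trinity genes of EPA cells the libraries of 6 h and 0 h lay apart for 23.1%. The first did not pass without a filter (adjusted p = 0.0654) or with the replicate block (0.0866), and neither passed with only 6 h and 0 h fitted (0.1997 and 0.0699) or with glmTreat (1 and 0.851). At 1 h, DN11417_c0_g1 (237 to 248) and DN29825_c1_g1 (469 to 496) also lay above every 0 h library. Neither passed then (edgeR, 0.34, adjusted p = 0.255, and 0.22, adjusted p = 0.428). Libraries of 1 h and 0 h lay apart, in either direction, for 15.5% of all tested Trinity genes of EPA cells. The TEF match DN74_c2_g1 had 833, 991 and 739 at 6 h, against 779, 757 and 725 at 0 h, with overlapping libraries (0.18, adjusted p = 0.391). At 3 h it had 945, 916 and 848, above every 0 h library, but did not pass (0.26, adjusted p = 0.457). Libraries of 3 h and 0 h lay apart for 18.3% of all tested Trinity genes of EPA cells. The HLF match DN9152_c0_g1 had 288, 306 and 316 at 6 h, against 306, 308 and 332 at 0 h (-0.06, adjusted p = 0.723). The NFIL3_MOUSE and NFIL3_XENTR matches did not pass at any time.

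**Figure D4:**
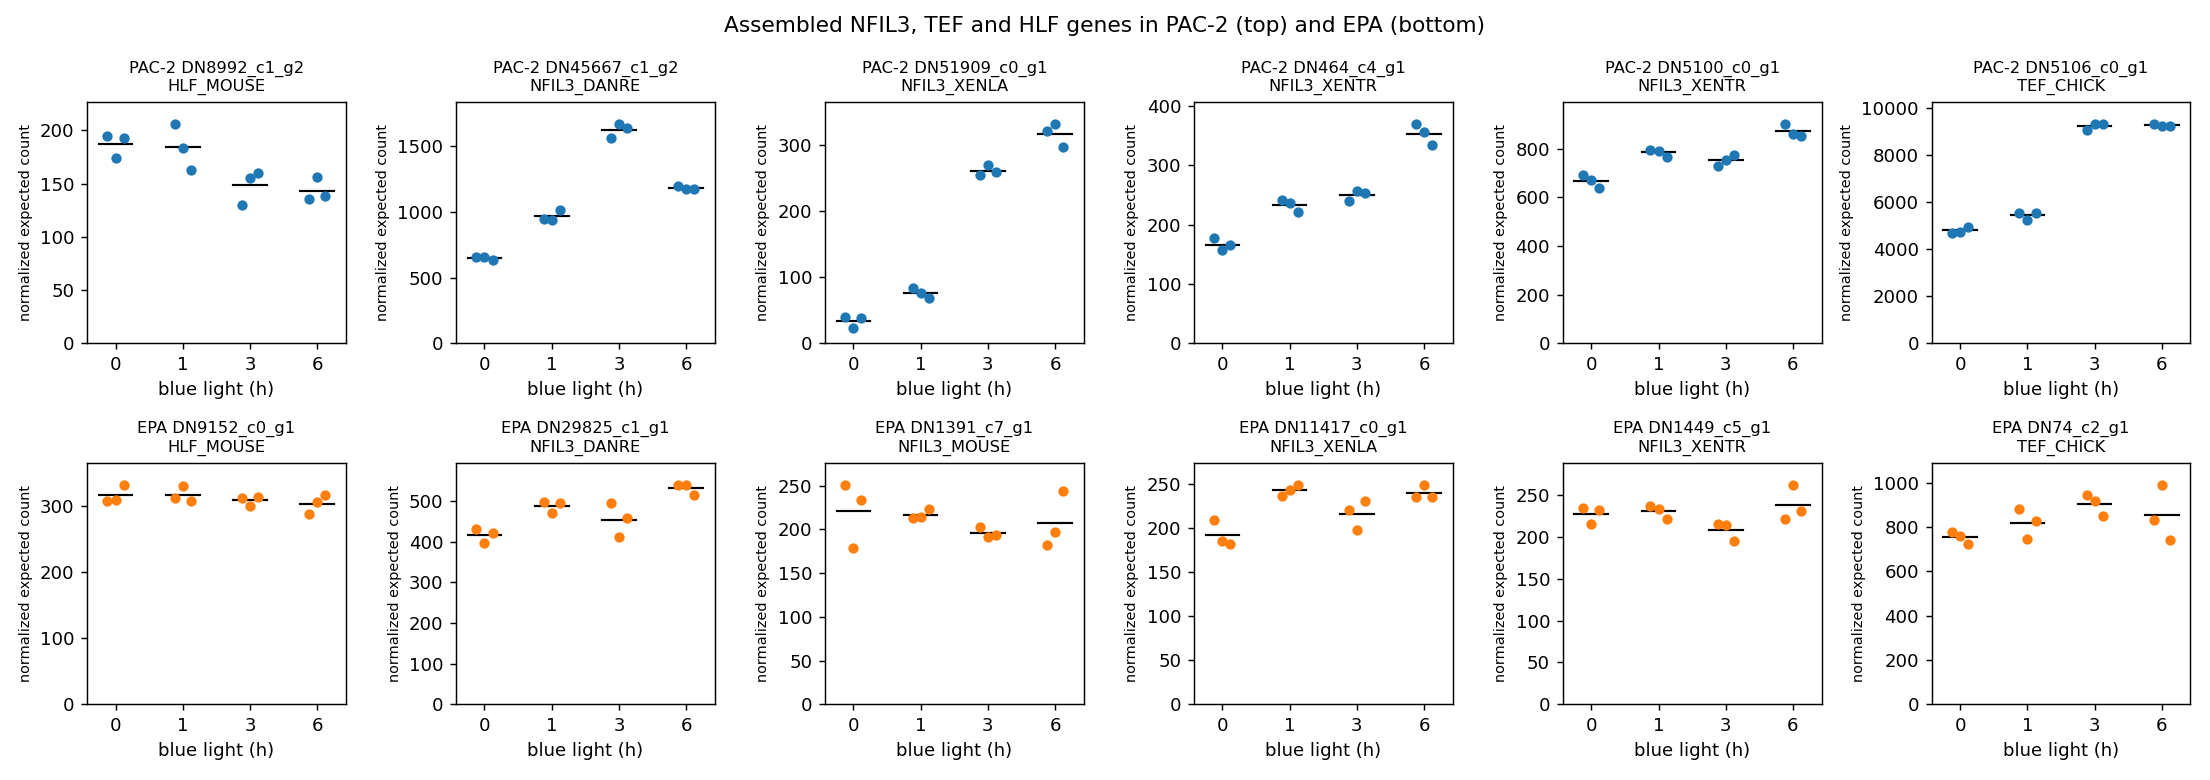
Normalized expected counts (y axis) of the 6 matched Trinity genes of PAC-2 cells (top) and of EPA cells (bottom) against hours of blue light (x axis); points are libraries and bars are means of 3. The PAC-2 NFIL3_XENLA match lies at 23.4 to 39.4 at 0 h and reaches 296 to 331 at 6 h. The EPA match of that name lies at 181 to 209 at 0 h and between 181 and 249 at all times. Levels are not compared between the lines, since each table was normalized on its own.

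The difference in response was tested by an interaction term over 6236 names found in both assembled tables, with Trinity genes of a name summed. For TEF, the log2 response in PAC-2 cells exceeded that in EPA cells by 0.69 (95% interval 0.48 to 0.89, adjusted p = 2.6e-05) at 3 h and by 0.76 (0.56 to 0.97, adjusted p = 2.25e-06) at 6 h. The only TEF match of PAC-2 cells followed *tefa* (r = 0.990) and ran opposite to *tefb* (r = -0.947). The falling copy *tefb* thus has no match of its own in this comparison. Which TEF copy the EPA match corresponds to was not tested. For NFIL3, the difference was 0.29 (0.15 to 0.42) at 1 h, 0.91 (0.77 to 1.04, adjusted p = 1.33e-09) at 3 h and 0.64 (0.51 to 0.78, adjusted p = 9.1e-08) at 6 h. For HLF, it was -0.31 (-0.55 to -0.07, adjusted p = 0.0477) at 3 h and -0.33 (-0.57 to -0.09, adjusted p = 0.0214) at 6 h. The HLF difference at 3 h did not pass with the largest Trinity gene of a name (adjusted p = 0.0531), with TMM factors from the shared names (0.062) or with a replicate block within each line (0.0659), and at 6 h not with TMM factors from the shared names (0.063). None reached a difference of 1, which 0.0962%, 0.641% and 1.35% of names did with an adjusted p under 0.05 after 1, 3 and 6 h. Without a minimum size, 1.04%, 27.1% and 47.3% of names passed.

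Summing the NFIL3 copies hides how unequal they were. By whole UniProt entry, an alternative added after the data were seen, NFIL3_XENLA differed between PAC-2 and EPA cells by 2.76 (2.46 to 3.06) at 3 h and 2.89 (2.59 to 3.19) at 6 h, and NFIL3_DANRE by 0.52 (0.36 to 0.67) at 6 h and by more at 3 h (95% interval 1.04 to 1.35). NFIL3_XENTR differed by 0.40 (0.22 to 0.57) at 3 h and 0.48 (0.31 to 0.65) at 6 h. At 1 h, NFIL3_XENLA differed by 0.81 (0.47 to 1.15, adjusted p = 0.00999) and NFIL3_DANRE by 0.35 (0.19 to 0.51, adjusted p = 0.017). NFIL3_XENTR did not pass at 1 h (0.27, adjusted p = 0.176). This entry sums DN464_c4_g1 and DN5100_c0_g1 in PAC-2 cells, and in EPA cells it is DN1449_c5_g1. DN1391_c7_g1 of EPA cells matched NFIL3_MOUSE, which no PAC-2 Trinity gene did, so the summed NFIL3 compares unlike sets of copies. Of 5407 entries, 0.0925%, 0.758% and 1.41% passed with a difference of at least 1 after 1, 3 and 6 h. An equal best match does not establish that a pair of genes are orthologs.

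**Figure D5:**
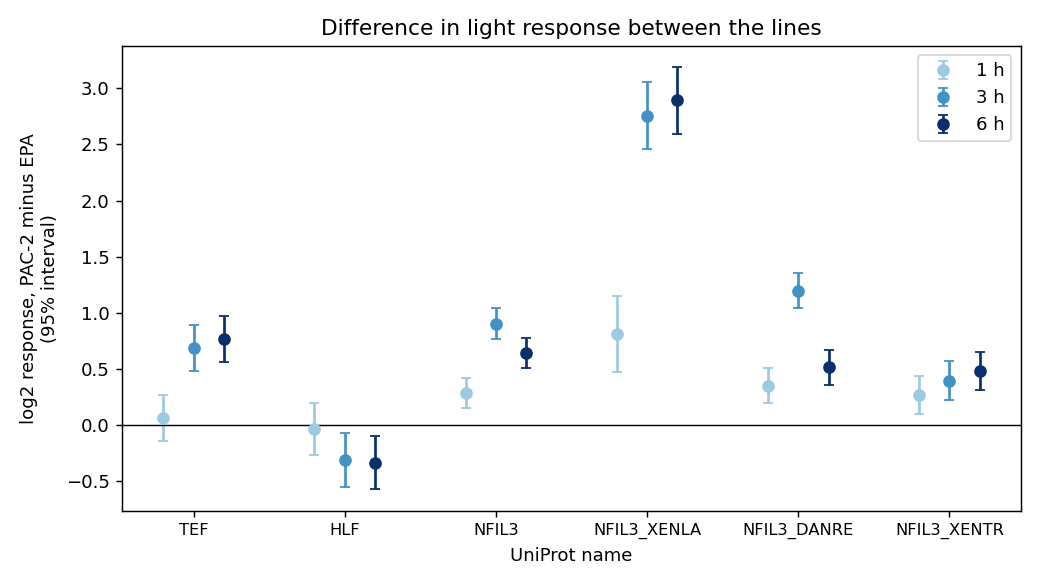
Log2 light response of PAC-2 minus EPA cells (y axis, with 95% interval) by UniProt name (x axis) after 1 h, 3 h and 6 h. TEF and HLF stand for 1 Trinity gene in each line, and NFIL3 is the sum of 4 in each line. The last 3 are whole UniProt entries, of which NFIL3_XENTR is a sum in PAC-2 cells. NFIL3_XENLA reaches 2.89 at 6 h, while HLF lies below 0.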

How the data were processed

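The authors' provider mapped PAC-2 reads to GRCz11 and deposited raw counts and FPKM per gene, and the authors assembled both lines with Trinity and deposited expected counts from salmon, whose transcripts had passed a TPM minimum. No source used here names the aligner, the annotation release or the strand setting. Without strand, reads of overlapping genes cannot be separated. The provider's FPKM values were used for levels and, rescaled to a common sum, as TPM. Every value column was mapped to a sample. Expected counts were rounded.

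For each table, 1 model over its 12 libraries was fitted in R 4.3.3 using edgeR 4.0.16 (TMM, filterByExpr by time, robust glmQLFit and glmQLFTest, Benjamini-Hochberg adjustment over all tested genes), leaving 8 residual degrees of freedom. The smallest p of an exact permutation test at this group size would be 0.1. Normalized counts are TMM-scaled to the mean library size, and log2 CPM for correlations used a prior count of 2. Alternatives included DESeq2 1.42.0, DESeq2 size factors, no filter, a replicate block, glmTreat and each library left out. The scripts were tested on simulated counts.

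The members, lists and tests were chosen with earlier results of these data known. Family genes outside the members were named from a list, and list genes by their calls and smallest adjusted p at 6 h; unannotated loci were chosen after their values were seen. Promoter and protein sequences of the members were not analysed here.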

Additional observations from a re-analysis of the deposited data

Results flagged for a closer look

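The light response differed between PAC-2 and EPA cells by an interaction test for 3 names, with the Trinity genes of a name summed. TEF differed by 0.69 at 3 h and 0.76 at 6 h, NFIL3 by 0.29 at 1 h, 0.91 at 3 h and 0.64 at 6 h, and HLF by -0.31 at 3 h and -0.33 at 6 h, all as log2 response in PAC-2 minus that in EPA cells. The only TEF match of PAC-2 cells followed *tefa* and not *tefb*, which fell. Of all 6236 names, 1.04%, 27.1% and 47.3% passed after 1, 3 and 6 h. The HLF difference (adjusted p = 0.0477 at 3 h) was lost at 3 h under 3 alternatives and at 6 h with TMM factors from the shared names (adjusted p = 0.063). NFIL3 at 1 h had an adjusted p of 0.0341, and with some libraries left out 0 of the family names passed at 1 h.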

How the results depend on the processing

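In the refits no direction of a passing result reversed. In TPM without TMM factors, an alternative added after the data were seen, 2 passing results among 35 values changed sign. They were *tefa* (0.13) and *tefb* (0.0061) between 6 h and 3 h, and the libraries of *tefb* overlapped. A further 9 values moved by more than the larger SD of log2 TPM of the 2 times. From 3 h to 6 h these included *nfil3-6* (0.39), *nfil3-5* (0.79), *dbpb* (-0.75) and *hlfa*, which had not passed and changed sign (0.23). At the study's thresholds, the genome table had 0 called members at 1 h instead of 1 with glmTreat against a fold of 1.2 or with only the 2 times fitted, and 0 to 1, 1 to 2 and 2 to 2 after 1, 3 and 6 h with a library left out. At an adjusted p under 0.05 from 3 h to 6 h it had 2 instead of 4 with glmTreat and 2 to 4 with a library left out. In the PAC-2 assembled table at 1 h, DESeq2 called 1 instead of 0 at the study's thresholds and 5 instead of 2 at 0.05, only the 2 times fitted gave 0 at 0.05, and DESeq2 size factors, no filter, glmTreat and the replicate block each gave 1, with 1 to 2 when a library was left out. With only the 2 times fitted, 1 instead of 2 was called at 3 h and 0 instead of 2 at 6 h. In the EPA table at 6 h, 1 instead of 2 passed without a filter and with the replicate block, 0 with glmTreat or only the 2 times fitted, and 0 to 2 with a library left out. The cause of these changes was not tested.

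For PAC-2 against EPA, 1 name instead of 0 reached a difference of 1 at 3 h with the largest Trinity gene of each name, and 2 entries at 3 h and 1 at 6 h did by whole entry. At 0.05, 0 to 1 names passed at 1 h with a library left out. In TPM, 4 instead of 2 neighbouring loci overlapped at 0 h. Of the 5 genes most alike each member, Spearman kept 0 for *nfil3-6*, 2 for *tefa* and 0 for *dbpb*, and the means of the 4 times kept 0 for each.

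The replicate numbers showed little sign of pairing the samples. Of same-numbered pairs, 1 of 18 in the genome table and 0 of 18 in each assembled table correlated above 0.1. In the genome table that pair had the highest r (0.16), and 0 of 36 differently numbered pairs exceeded 0.1. With 3 libraries per time, such correlations cannot exclude a pairing. The replicate block lost 5 of 86 tested values, among them *hlfa* at 6 h (adjusted p = 0.0571).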
